A study of Mus musculus with 12 samples.

Results

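Zrsr1 is a gene without introns that sits inside an intron of Commd1 on mouse chromosome 11, and both genes were followed here through every row that the deposited methylation tables held for them. The rows were 3 of Zrsr1 (promoter, exon and 5′ UTR), 4 of Commd1 (promoter, exon, intron and 5′ UTR) and, inside the Commd1 gene span, 3 CpG islands and 4 island shores. These 14 features, of 176831 in the whole series, all had a level in each of the 12 libraries. The assay was reduced representation bisulfite sequencing (RRBS), in which the enzyme MspI cuts DNA at CCGG and bisulfite conversion then tells methylated from unmethylated cytosines in the CpG-rich fragments. Levels are given as the percentage of CG calls that were methylated, and differences as percentage points. The tables gave no read counts, so the depth behind each level is unknown.

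The libraries formed 6 groups of 2. ESC were female embryonic stem cells from fertilized embryos, and pESC were parthenogenetic stem cells, from oocytes activated without sperm, so that both copies of the genome are maternal. According to the study's methods both kinds of line carried an Actin-GFP transgene and were established on feeder cells in medium with serum and LIF. For induction they were first kept for some passages in medium with LIF and kinase inhibitors. The methods do not say from which medium the stem cells for RRBS were taken. ESC-PGCLC and pESC-PGCLC were primordial germ cell-like cells, made from those lines by 2 days of epiblast-like cell induction (bFGF, Activin A and KSR) and 4 days with BMP4, SCF, EGF and LIF, and sorted for SSEA1 and CD61. E9.5 PGC and E12.5 PGC were primordial germ cells sorted from female embryos at embryonic day 9.5 and 12.5. The strain label of the samples was C57BL6. The labels do not say whether libraries of a group came from separate lines, cultures or litters, so a p-value here measures only the spread between libraries, which may be technical. Methylation cannot show cell identity by marker expression, and the cell type labels were not checked further. Across the 133311 features listed in every library the mean level was 23.6% in ESC and 23.6% in pESC, 36.4% in E9.5 PGC, 24.3% in E12.5 PGC, 29.5% in ESC-PGCLC and 27.4% in pESC-PGCLC. Over these features replicates were 6.16 points apart on average in ESC and 2.19 to 3.29 points in the other groups, and identical values made up 0.117% to 0.256%.

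Zrsr1 is known as an imprinted retrogene. It is a copy of the X-linked gene Zrsr2 that was inserted through RNA, and both encode relatives of U2AF proteins, which recognise the ends of introns during splicing. At its own start lies a CpG island that is methylated in the egg and not in sperm, so that after fertilization the maternal copy is methylated and silent and the paternal copy is expressed. Commd1, the host gene, encodes a protein that takes part in copper export and in the turnover of NF-kB subunits, and its own start is not known to be a germline imprint. Primordial germ cells erase imprints as they mature, and parthenogenetic cells carry no paternal copy. The study compared parthenogenetic with fertilized cells and with embryonic germ cells to ask how imprints behave on the way to oocytes.

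In the GENCODE M21 annotation of GRCm38 (mm10), Commd1 covers chr11:22896136-22982382 on the minus strand and Zrsr1 covers chr11:22972005-22976496 on the plus strand. The single exon of Zrsr1 lies wholly in intron 1 of the longest Commd1 transcript, which runs from 22956693 to 22982078, and the start of Zrsr1 is 10377 bases from that of Commd1. The first island, of 1019 bases, is at chr11:22971975-22972993 and covers the start and most of the 5′ UTR of Zrsr1. The second, of 215 bases, is at chr11:22973117-22973331, 123 bases further on, and holds the Zrsr1 start codon. The third, of 417 bases, is at chr11:22981957-22982373 and covers the start of Commd1. The annotation also places the start of 1 of 6 Commd1 transcripts, at 22972859, inside the first island, and 2 annotated Commd1 exons overlap Zrsr1. Which of these transcripts the promoter, exon and intron rows of Commd1 pool is not given in the sources used here.

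The starts of both genes hold CpG sites, as the bases just before each show. They are printed from the RefSeq promoter windows of GRCm38.p6 for the stretch ahead of the annotated start, at chr11:22971755-22972004 on the plus strand for Zrsr1 and chr11:22982383-22982534 on the minus strand for Commd1, with each CG in capitals.
Zrsr1 upstream: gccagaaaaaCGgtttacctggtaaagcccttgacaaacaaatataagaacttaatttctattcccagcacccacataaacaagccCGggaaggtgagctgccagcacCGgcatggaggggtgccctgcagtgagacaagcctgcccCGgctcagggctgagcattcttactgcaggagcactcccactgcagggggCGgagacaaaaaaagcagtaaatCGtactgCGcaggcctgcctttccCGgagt
Commd1 upstream: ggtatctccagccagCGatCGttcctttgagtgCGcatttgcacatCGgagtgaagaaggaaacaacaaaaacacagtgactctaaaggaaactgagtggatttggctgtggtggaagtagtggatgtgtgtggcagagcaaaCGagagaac
The Zrsr1 stretch of 250 bases held 8 CG and 4 CCGG, the letters that MspI cuts, and the Commd1 stretch of 152 bases held 5 CG and no CCGG. In the full 300-base windows Zrsr1 had 10 CG and 4 CCGG, and the window at the outer Commd1 start had 18 CG and 2 CCGG. Of 32851 such windows, 52.8% had at least 1 CCGG and 13.3% had 4 or more. RefSeq gave a second window for Commd1, at the start inside the Zrsr1 island, with 17 CG and 2 CCGG.

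The motif TGCCGC, the letters bound by the imprint-keeping protein ZFP57 when methylated, was searched on both strands. It had no match in the Zrsr1 window, 1 match in the outer Commd1 window and a match in 11.6% of all windows. The 1019-base island had 76 CG, 14 CCGG and no TGCCGC, and 72.0% of 1362 islands within 10% of its length held that motif. The 215-base island had 17 CG, 1 CCGG and 1 TGCCGC, and the 417-base island at the Commd1 start had 35 CG, 4 CCGG and 1 TGCCGC. Of islands of like length, 21.1% and 40.2% held TGCCGC. These matches describe letters in the windows.

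The Zrsr1 promoter was close to unmethylated in fertilized stem cells and between 27.7% and 51.2% in every other library. The ESC libraries had 1.65% and 1.91%, and the pESC libraries 40.3% and 40.1%. In E9.5 PGC the levels were 51.2% and 50.1%, and in E12.5 PGC 27.7% and 29.0%. The ESC-PGCLC libraries had 32.8% and 33.9%, and the pESC-PGCLC libraries 37.0% and 36.6%. The order from highest to lowest was therefore E9.5 PGC, pESC, pESC-PGCLC, ESC-PGCLC, E12.5 PGC and ESC, and none of the 5 neighbouring pairs of groups had overlapping replicates. The smallest gap between nearest replicates was 2.71 points, between pESC-PGCLC and ESC-PGCLC, and the widest was 25.8 points, between E12.5 PGC and ESC. How many of all features also lacked overlap of replicates was not counted, here or below.

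The exon and 5′ UTR rows of Zrsr1, which share CpG sites with the promoter and the islands, gave nearly the same values. The exon had 1.97% and 1.84% in ESC, 43.3% and 40.6% in pESC, and 53.0% and 52.4% in E9.5 PGC. It had 29.3% and 30.0% in E12.5 PGC, 34.0% and 33.9% in ESC-PGCLC, and 37.7% and 39.4% in pESC-PGCLC. The 5′ UTR ranged from 27.2% to 51.9% outside ESC and was 1.31% and 1.58% in ESC. Both rows kept the order of the promoter with no overlap between neighbouring groups. Against other features of their class the levels stood at different places: the 5′ UTR mean of E9.5 PGC was above 95.1% of 5′ UTRs, whereas the promoter mean was above 73.6% of promoters. In ESC the promoter mean was above 20.2% of promoters.

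**Figure D1:**
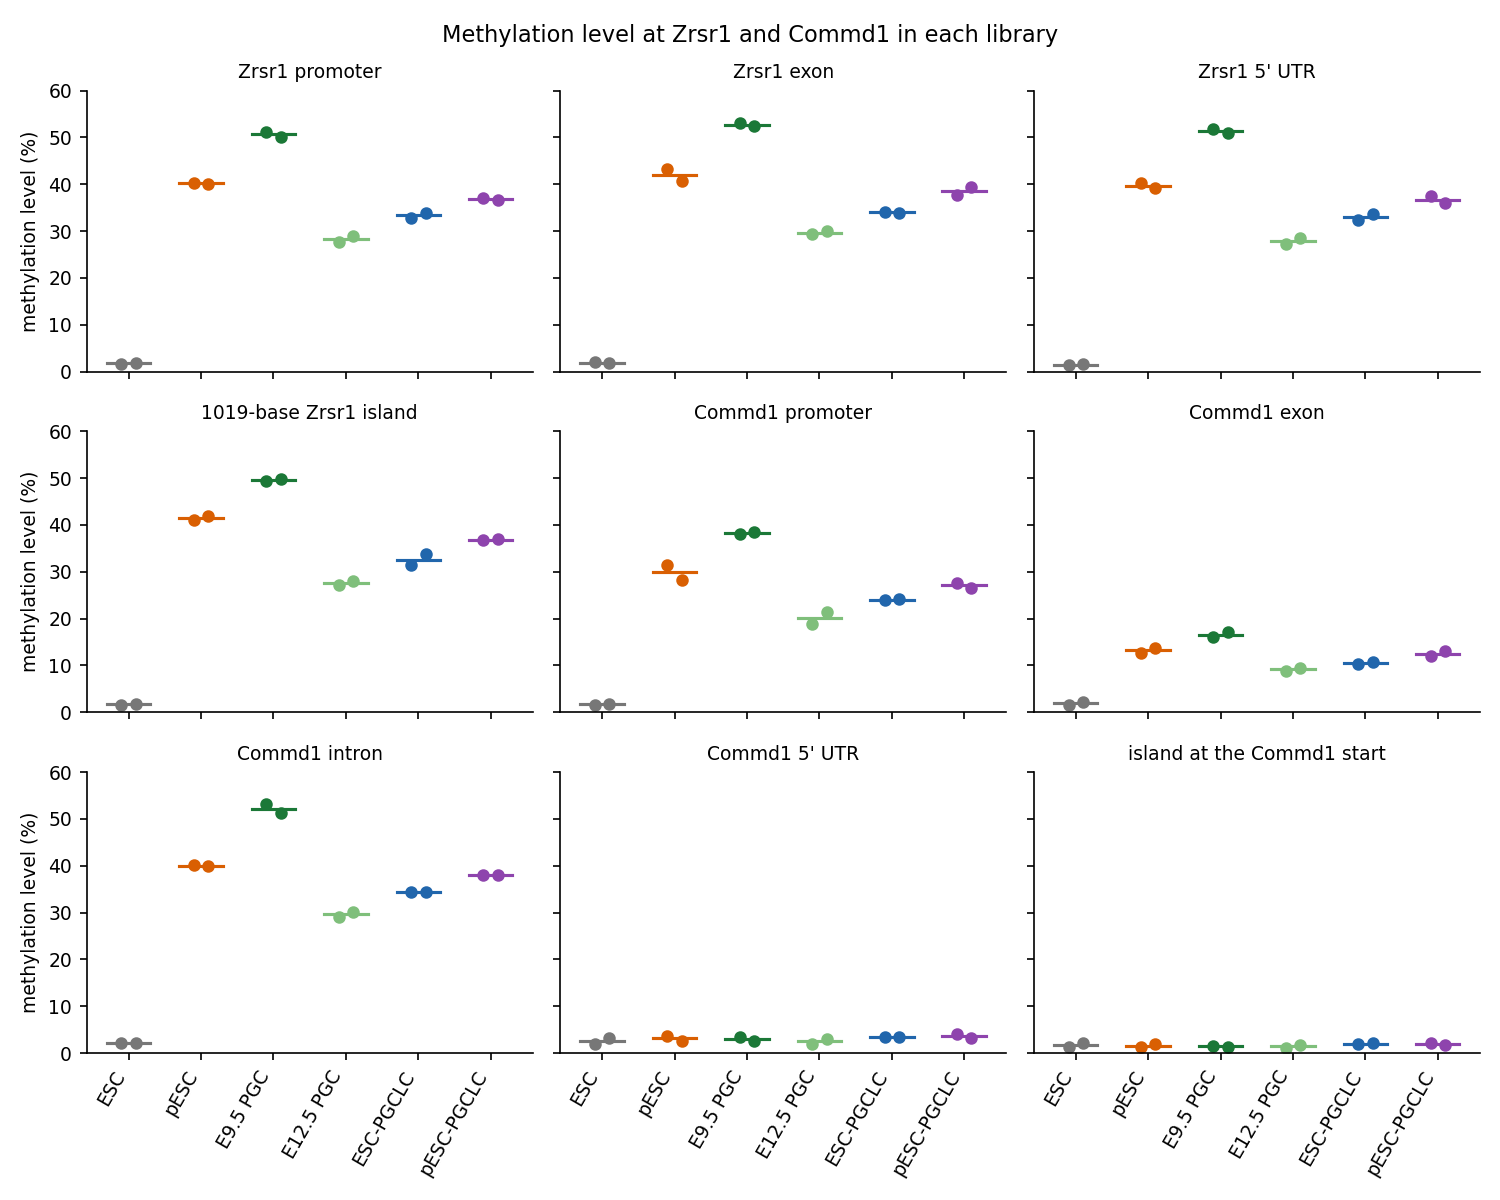
Methylation level in percent (y axis) in each library (points) of the 6 groups (x axis) for 9 rows of Zrsr1 and Commd1, with lines at the mean of 2 libraries. The Zrsr1 rows, the 1019-base island and the Commd1 intron were near 2% in ESC and at 27.2% or more elsewhere, while the Commd1 5′ UTR and the island at the Commd1 start stayed under 4.2% in every library.

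Commd1 divided into rows that moved with Zrsr1 and rows that did not. Its promoter row had 1.59% and 1.76% in ESC, 31.4% and 28.3% in pESC, 38.1% and 38.5% in E9.5 PGC, 18.9% and 21.5% in E12.5 PGC, 23.9% and 24.1% in ESC-PGCLC, and 27.6% and 26.6% in pESC-PGCLC. This is the same order of groups as at Zrsr1, again with no overlap of neighbours, at a lower level. An annotated Commd1 start lies inside the Zrsr1 island, so this row may share CpG sites with Zrsr1. Which starts it pools is not given. The intron row, which contains the Zrsr1 gene, had 2.06% and 2.09% in ESC and 29.2% to 53.1% elsewhere. The exon row was lower still, with 1.61% and 2.17% in ESC and 8.93% to 17.1% elsewhere, and here the pESC and pESC-PGCLC replicates overlapped.

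The start of Commd1 itself was unmethylated throughout. The 5′ UTR row of Commd1 ranged from 1.88% to 4.17% over the 12 libraries, with a median of 3.17%. The 417-base island there ranged from 1.16% to 2.15%, with a median of 1.81%. At both features the replicates of every neighbouring pair of groups overlapped, so no group stood apart.

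The Zrsr1 promoter was higher than the Commd1 promoter in 12 of 12 libraries, by 8.31 points on average (SD 4.13 over libraries, range 0.0541 to 13.03 points). An exact sign-flip test over the 12 libraries gave p = 0.000488 (two-sided). With the replicates of each group averaged the 6 differences gave p = 0.0312 by the same exact test, the smallest that 6 pairs can give. The libraries come from different groups and are not replicates of the same condition. An annotated Commd1 start lies inside the Zrsr1 island, and which starts the Commd1 promoter row pools is not given. The test therefore cannot say whether separate promoters differ. Outside ESC the Commd1 promoter had between 0.684 and 0.780 of the Zrsr1 promoter level, with a median of 0.735 over 10 libraries. The Commd1 exon had between 0.315 and 0.356 of it. These ratios varied less between groups than the levels themselves did. In ESC, where all were close to 0, the ratios of promoter to promoter were 0.921 and 0.967.

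The 6 regions near Zrsr1 defined by position were all low in ESC and raised in the other groups, while the order of those groups was not the same in each. The 1019-base island had 1.58% and 1.80% in ESC, 41.1% and 41.9% in pESC, 49.3% and 49.9% in E9.5 PGC, 27.2% and 28.0% in E12.5 PGC, 31.5% and 33.7% in ESC-PGCLC, and 36.9% and 36.9% in pESC-PGCLC. Neighbouring groups did not overlap there. The 215-base island was noisier, with replicates 5.59 to 9.98 points apart outside ESC. It had 31.1% and 23.4% in pESC and 62.5% and 52.6% in E9.5 PGC, and only 2 of its 5 neighbouring pairs of groups were free of overlap. Its pESC mean, 27.2%, was the second lowest of the 6 groups, unlike at the Zrsr1 promoter.

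The 4 shores were chr11:22969973-22971973, chr11:22971115-22973115, chr11:22972993-22974994 and chr11:22973331-22975332. They are not independent of the islands, since the second contains the whole 1019-base island and the third the whole 215-base island. Upstream of Zrsr1, the first shore had 2.20% and 4.65% in ESC and 31.8% to 52.7% elsewhere. Within the gene, the last shore had 3.76% and 2.35% in ESC and 33.1% to 55.3% elsewhere. The raised level thus covered about the same range from the first shore to the last, and was gone at the Commd1 start, 8625 bases beyond the second island. Outside the gene span, the next island, at chr11:22990521-22991100, had 1.58% to 3.58% over the 12 libraries. The shore beside it, at chr11:22988519-22990519, had another order of groups, with a mean of 27.3% in ESC, 24.1% in pESC and 2.19% in ESC-PGCLC.

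**Figure D2:**
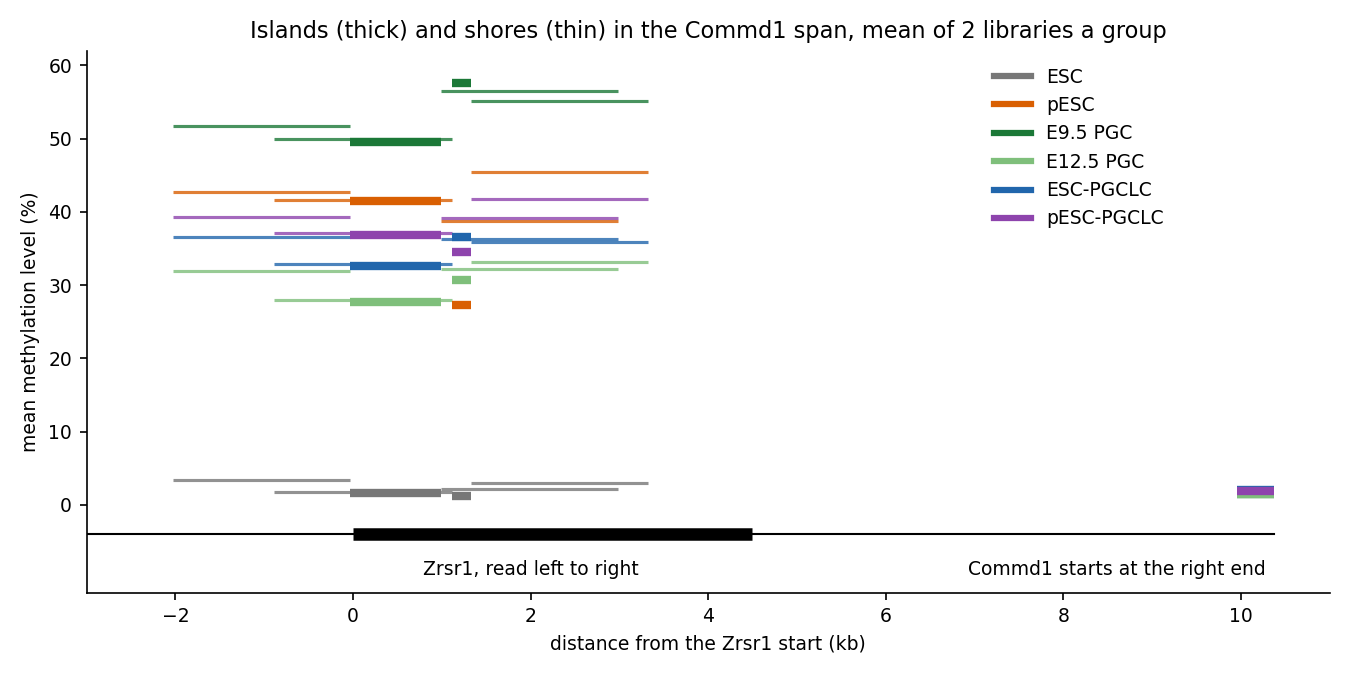
Mean methylation level in percent (y axis, 2 libraries a group) of the 3 islands (thick bars) and 4 shores (thin bars) against the distance from the Zrsr1 start in kb (x axis), with Zrsr1 as a black box. The 6 regions at Zrsr1 separate ESC, at 3.43% or less, from the other groups, at 27.2% or more, and all groups meet at 2.04% or less at the Commd1 start.

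Parthenogenetic stem cells were first compared with those from fertilized embryos. The groups differ in line as well as in parental origin, which cannot be told apart here. Neither had the level of a fully methylated maternal copy: ESC, with 1 maternal copy of 2, was near 0, and pESC, with 2, was near 40%. The difference is therefore not simply that of 1 against 2 methylated copies, and its cause was not tested. The 14 other imprinted promoters listed below had 1.05% to 39.6% in ESC, with a median of 7.05%. The Zrsr1 promoter was higher in pESC, at 40.2% ± 0.122 (SD, n = 2) against 1.78% ± 0.186 (SD, n = 2), a difference of 38.4 points and of 4.60 (SE 0.32) on the log2 odds scale, with a 95% interval of 3.83 to 5.37. The Commd1 promoter was higher by 28.2 points, at 29.9% ± 2.22 against 1.67% ± 0.117 (SD, n = 2). The Commd1 5′ UTR differed by 0.651 points. In all, 12 of the 14 features were higher in pESC, by 11.3 to 42.4 points, and their replicates did not overlap with those of ESC. How many of all features lacked such overlap was not counted. Each of the 12 differences was larger than that of at least 99.3% of the features of its class.

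Features were called when limma gave an adjusted p under 0.05 over all features tested and the means differed by at least 10 points. By that rule 0 of the 14 features passed for pESC against ESC, and neither did any of the 148012 features tested (0%). The Zrsr1 promoter had an adjusted p of 0.0795, which was also the smallest of all features, while 12 of the 14 members and 2054 of all features had an unadjusted p under 0.05. This test rests on 4 libraries. In a fit of all 12 libraries, which estimates the spread from all 6 groups, the Zrsr1 promoter had an adjusted p of 3.08e-06 and 12 of the 14 members were called higher, against 69 of 133311 features (0.0518%). Among promoters alone the adjusted p was 0.000305. With 1 of the 4 libraries left out the Zrsr1 promoter was 38.3 to 38.6 points higher in pESC. Fits without a pESC library called members but also many other features of the series, and fits without an ESC library did not. Each such fit leaves 1 library in a group.

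As a description, 6 of 19766 promoters had a larger rise than Zrsr1 from ESC to pESC and 14 had a larger one than Commd1, while 78.8% of promoters differed by less than 2 points in either direction.

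**Figure D3:**
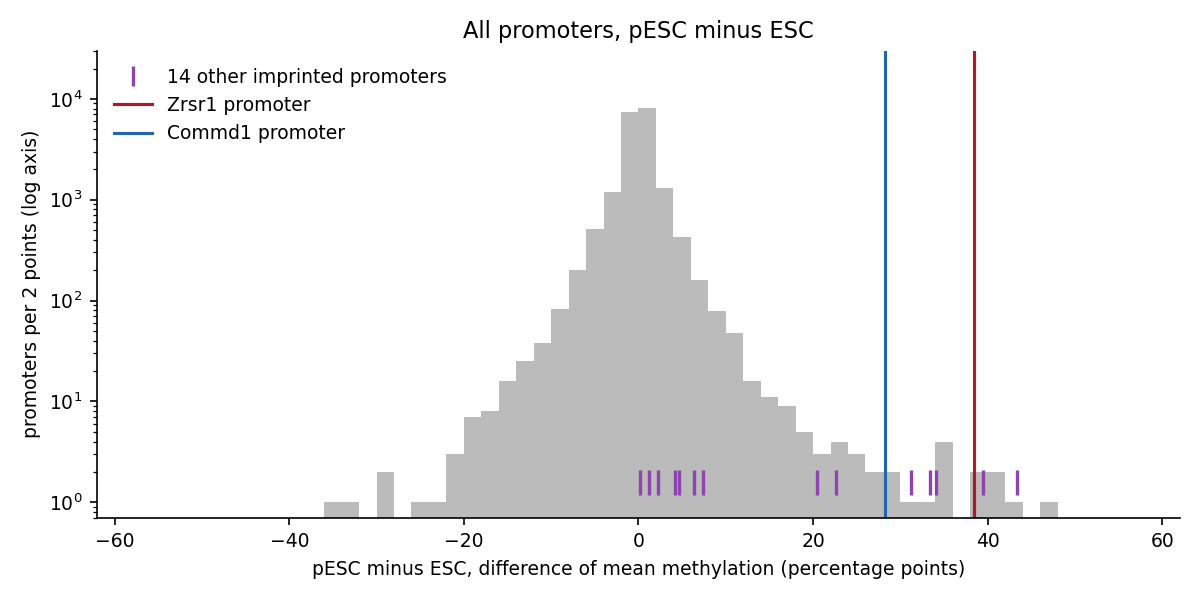
Number of promoters (y axis, log scale) by the difference of mean methylation between pESC and ESC in percentage points (x axis, bins of 2 points), with lines at the Zrsr1 and Commd1 promoters and ticks at 14 other imprinted promoters. Most promoters lie within 2 points of 0, and Zrsr1, at 38.4 points, and Commd1, at 28.2 points, lie in the thin upper tail.

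The locus was less methylated in germ cells of embryonic day 12.5 than in those of day 9.5. The Zrsr1 promoter fell by 22.3 points, from 50.6% ± 0.752 to 28.4% ± 0.940 (SD, n = 2), which is -1.34 (SE 0.09) in log2 odds with a limma adjusted p of 9.21e-05. The Commd1 promoter fell by 18.1 points (adjusted p = 0.000159). Of the 14 features 11 were called lower, against 49.6% of the 137202 features tested, so that a call of this kind was common. The Commd1 exon passed the adjusted p but differed by less than 10 points, and the 2 features at the Commd1 start were not called. At E12.5 the Zrsr1 promoter had 56.0% of its E9.5 level and the Commd1 promoter 52.8%.

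The median feature also fell over these 3 days, by 11.5 points and by 0.86 in log2 odds. Centring instead subtracts the median log2 odds of each library, which is not the median of the feature differences. After it the Zrsr1 promoter differed by -0.23 in log2 odds with a limma adjusted p of 0.121. None of the 14 features was then called, against 24392 of 137202 features in either direction. Against the library medians the locus is therefore not shown to have changed beyond the general level. Within classes the picture differed. For the 12 features outside the Commd1 start, between 3.25% and 53.0% of the features of their class fell by more points. The median promoter fell by 1.49 points and the median island by 0.101 points, but islands had a mean of only 7.33% in E9.5 PGC.

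The cultured germ cell-like cells lay between the embryonic stages at Zrsr1. In ESC-PGCLC the promoter fell by 17.3 points relative to E9.5 PGC (adjusted p = 0.000982), and 11 of 14 features were called lower, against 29.6% of all. In pESC-PGCLC it fell by 13.8 points relative to E9.5 PGC (adjusted p = 0.000866), and 11 of 14 were called lower, against 40.2% of all. Both comparisons and the one between embryonic stages use the same 2 libraries of E9.5 PGC. The Zrsr1 promoter kept 65.8% of the E9.5 level in ESC-PGCLC and 72.7% in pESC-PGCLC.

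These differences too were smaller against the library medians. Over all features the median difference from E9.5 PGC was -0.44 in log2 odds for ESC-PGCLC and -0.60 for pESC-PGCLC. For ESC-PGCLC 5 of the 14 features were still called after centring, against 12535 of 137202 features in either direction. The Zrsr1 promoter then had -0.35 in log2 odds (limma adjusted p = 0.0479). For pESC-PGCLC none was called, against 18934 of 137202 features in either direction. The sign at the Zrsr1 promoter turned, to 0.0048 (limma adjusted p = 0.975).

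Against E12.5 PGC the promoter was higher in both cultures by less than 10 points. It was 4.97 points higher in ESC-PGCLC (adjusted p = 0.0394) and 8.46 points higher in pESC-PGCLC (adjusted p = 0.0247). By limma 0 of the 14 features were called in either comparison, against 22.8% and 7.10% of all. An unadjusted p under 0.05 was found for 7 and 11 of them, and for 61104 and 42266 of the 137202 features tested. The median feature was higher by 0.34 and 0.20 in log2 odds. With the library medians removed the first of these turned sign, to -0.13 in log2 odds with an adjusted p of 0.423, and that of pESC-PGCLC went from 0.54 to 0.23 in log2 odds with an adjusted p of 0.247.

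Between the cultures the pESC-PGCLC promoter was 3.49 points above that of ESC-PGCLC, at 36.8% ± 0.324 against 33.3% ± 0.780 (SD, n = 2). The replicates did not overlap, but the difference of 0.22 (SE 0.09) in log2 odds, with a 95% interval of -0.01 to 0.45, had an adjusted p of 0.278. By limma 0 of the 14 features were called, against 0.0948% of all. An unadjusted p under 0.05 was found for 4 of them and for 26558 of the 137202 features tested. The median feature had -0.14 in log2 odds. All but 1 of the 12 features outside the Commd1 start, several of which share CpG sites, were higher in pESC-PGCLC, by up to 5.82 points. The exception was the 215-base island, with 34.5% ± 6.03 in pESC-PGCLC and 36.6% ± 5.24 in ESC-PGCLC (SD, n = 2).

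**Figure D4:**
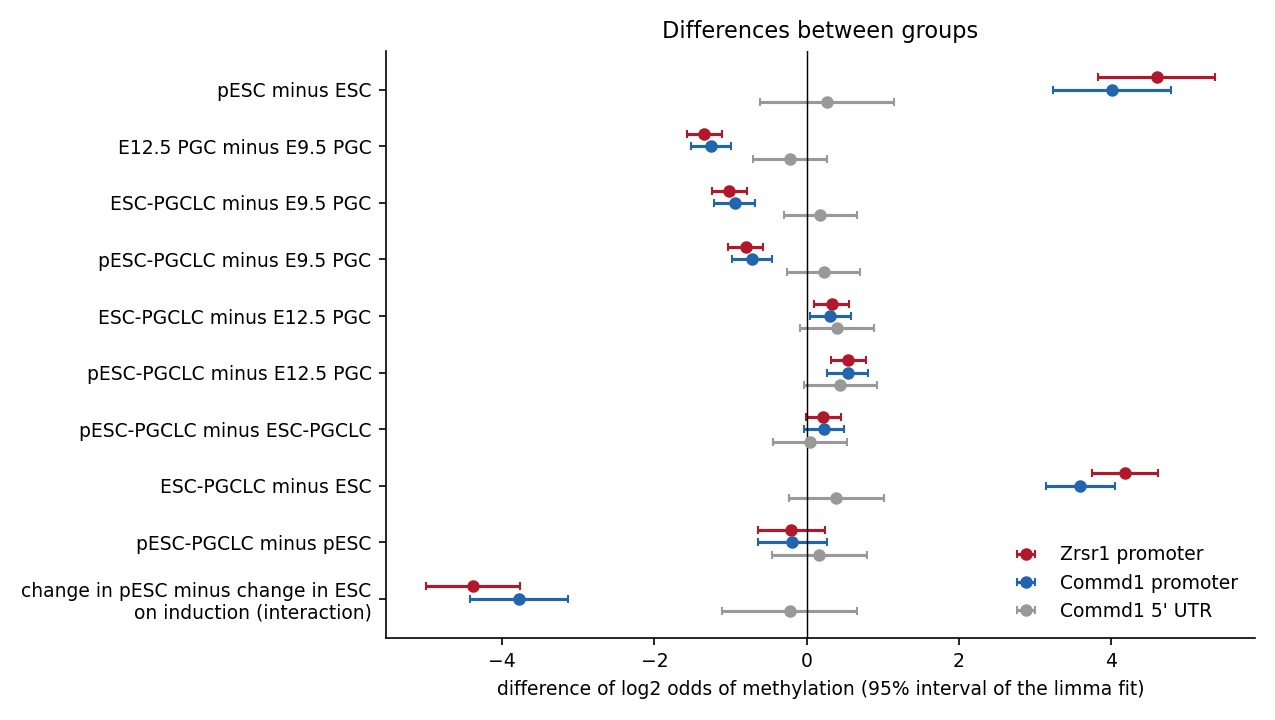
Difference of log2 odds of methylation (x axis) with the 95% interval of the limma fit (bars) for 9 comparisons and the interaction (y axis) at the Zrsr1 promoter, the Commd1 promoter and the Commd1 5′ UTR. The 2 promoters differ most for pESC minus ESC (4.60 and 4.01), ESC-PGCLC minus ESC (4.18 and 3.60) and the interaction (-4.38 and -3.78), and every interval of the Commd1 5′ UTR includes 0.

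Germ cell-like cells differed from their own stem cells at the locus when of fertilized origin, and not detectably when parthenogenetic. In ESC-PGCLC the Zrsr1 promoter was 31.5 points above ESC, which is 4.18 (SE 0.19) in log2 odds with an adjusted p of 7.45e-05. The Commd1 promoter was higher by 22.4 points (adjusted p = 8.11e-05). Of the 14 features 11 were called higher, against 13.7% of all, while the median feature was 1.26 points higher. After centring on library medians 11 were called higher as well, against 9733 of 136848 features. The ESC libraries were thus the only ones in which Zrsr1 was nearly free of methylation, and the cells labelled as induced from ESC had 33.3% ± 0.780 (SD, n = 2).

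The Zrsr1 promoter of pESC-PGCLC differed from that of pESC by -3.39 points, with an adjusted p of 0.644 and a 95% interval of -0.64 to 0.24 in log2 odds. By limma 0 of the 14 features were called, against 9.66% of all. An unadjusted p under 0.05 was found for 0 of them and for 30532 of the 136848 features tested. After centring on library medians that difference was -1.12 in log2 odds with an adjusted p of 0.00925, but it remained under 10 points. The difference of the 2 changes, tested as an interaction, was -34.9 points and -4.38 (SE 0.26) in log2 odds with an adjusted p of 0.00721. At this interaction 9 of the 14 features were called with a negative sign, against 0.0183% of all, and these 9 were among 25 features called in that direction. Without pESC replicate 1 or 2 or pESC-PGCLC replicate 1 or 2 the differences at the Zrsr1 promoter were -34.7 to -35.2 points. They no longer passed the rule for a call. Such a fit leaves 1 library in a group, and hardly any feature of the whole series passed there.

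The promoters whose levels were nearest to those of Zrsr1 over the 12 libraries, among 18455 others, were those of Peg10, Sgce, Mest, Gm27522 and Plagl1. Peg10, an imprinted gene of retrotransposon origin needed in the placenta, differed by 2.50 points on average, and had group means of 3.38% in ESC, 36.8% in pESC and 52.9% in E9.5 PGC. Sgce, whose start adjoins that of Peg10, differed by 2.88 points and Mest by 4.18 points. Gm27522, annotated inside the Mest span, differed by 4.47 points, and Plagl1, which encodes an imprinted zinc finger protein, by 4.98 points. Plagl1 had a lower level in pESC, 23.7%, and a similar one in ESC, 1.05%. The Commd1 promoter was in place 119 of this order, at 8.31 points. The closeness is a description over libraries that share groups and carries no test.

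Genes at other maternally methylated imprints were taken as a list of 20, of which 14 had a promoter level in all libraries. A promoter row need not cover the methylated region of such a locus, and Peg10 with Sgce and Gnas with Nespas are neighbours that share sites. In pESC 7 of the 14 were at least 10 points above ESC, with a median of 14.0 points for the list and 0.0265 for all promoters. None was called, nor was any of the 148012 features tested. Snrpn, which marks the Prader-Willi imprint, had 39.6% in ESC and 83.0% in pESC. Mest had 6.74% and 46.2%, Sgce 3.30% and 37.4%, and Peg10 3.38% and 36.8%. Others barely differed, such as Mcts2, another retrogene in a host intron, with 2.71% in ESC and 4.95% in pESC.

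Beside this list Zrsr1 lay near the bottom in ESC, where 12 of the 14 promoters were higher, and in the upper part in pESC, where 5 were higher. From E9.5 to E12.5 12 of the 14 were called lower, against 49.6% of all features, and the 13 with at least 20% at E9.5 kept 56.0% to 71.5% of that level, with a median of 62.5%, so that Zrsr1, also at 56.0%, was at the low end of this range. In ESC-PGCLC 10 of the 14 were called higher than in ESC, against 13.7% of all features, with a list median of 24.2 points. In the interaction 3 were called with a negative sign, against 0.0183% of all features, which were Peg10 (-26.6 points), Sgce (-27.4 points) and Mest (-33.1 points). Between pESC and pESC-PGCLC the calls went in both directions. Of the 14, Gnas, Nespas and Mcts2 were called higher in pESC-PGCLC than in pESC, by 21.8, 23.0 and 32.0 points. Snrpn was called lower, with -14.9 points. Calls in either direction made up 9.66% of all features.

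**Figure D5:**
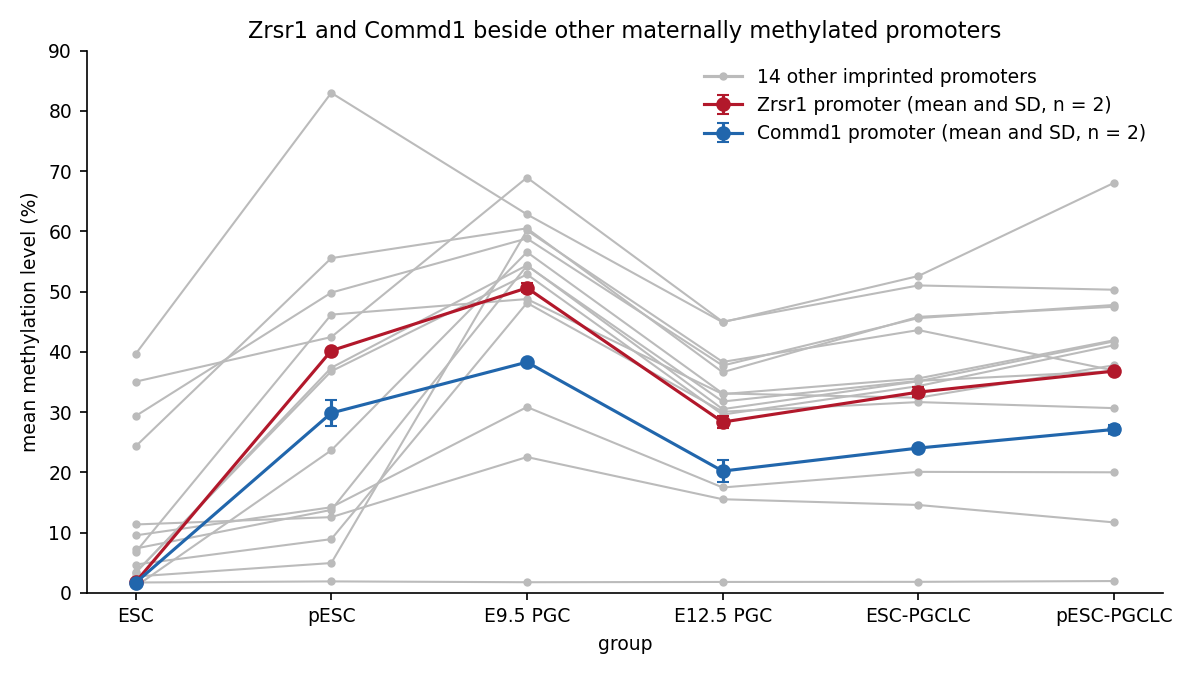
Mean methylation level in percent (y axis) of the Zrsr1 and Commd1 promoters, with SD over 2 libraries, and of 14 promoters of other maternally methylated imprints (grey, means only) in the 6 groups (x axis). Zrsr1 runs from 1.78% in ESC to 50.6% in E9.5 PGC inside the range of the other promoters, and Commd1 lies below Zrsr1 in every group.

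The genes related to Zrsr1 by sequence or function did not share its pattern. Zrsr2, the X-linked relative, had a promoter level of 1.97% in ESC and 1.84% in pESC, and 16.2% in E9.5 PGC against 15.9% in E12.5 PGC. It was the 1 of 6 splicing relatives called in any comparison, with 12.2% in ESC-PGCLC, 10.3 points above ESC (limma adjusted p = 0.00183). Of all features 13.7% were called higher in that comparison. The other 5, namely U2af1, U2af2, U2af1l4, Luc7l2 and Rbm39, stayed at 3.02% or less in every group, and the 4 of the list with the widest differences of pESC from ESC, among them U2af1l4 (-0.63 points) and Rbm39 (-0.48 points), moved by less than 1 point. Zrsr1 and Zrsr2 are similar in sequence, so reads could be shared between them, although the authors kept unique alignments.

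The relatives of Commd1 were low as well. Of Commd2 to Commd10, 6 had a promoter level in all libraries and none was called in any of the comparisons. Calls among all features ranged from 0 of 148012 for pESC against ESC to 68050 of 137202 for E12.5 against E9.5 PGC. The widest differences of pESC from ESC were at Commd6 (-0.92 points), Commd8 (0.811 points), Commd10 (0.807 points) and Commd7 (-0.58 points).

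Within 500 kb of the Commd1 span 8 of 25 annotated neighbours had a promoter level, and none was called for pESC against ESC or for the interaction. Calls were rare there: 0 of 148012 features for pESC against ESC and 50 of 136848 for the interaction. Cct4, which encodes a chaperonin subunit and lies next to the start of Commd1, had 20.1% in ESC, 17.8% in pESC and 2.14% in ESC-PGCLC, and was called lower in ESC-PGCLC than in ESC, with -18.0 points (adjusted p = 0.000398). Gm12053 had 78.3% in E9.5 PGC and 40.1% in E12.5 PGC and was called lower, with -38.2 points (adjusted p = 7.50e-05). Gm26829 (-6.09 points) and Usp34 (0.499 points) complete the 4 with the widest difference of pESC from ESC, with Gm12053 (3.06 points) and Cct4 (-2.33 points).

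Commd1 can be set beside other genes that hold an imprinted transcript in an intron or overlap one. Of 7 such hosts 6 had a promoter level, and 1 of them, Inpp5f, was at least 10 points higher in pESC than in ESC, with 49.8% against 29.3%. Blcap, which holds Nnat, had 21.5% and 12.6%, Herc3, which holds Nap1l5, had 14.1% and 6.02%, and Igf2r had 12.6% and 11.3%. From E9.5 to E12.5 PGC Blcap and Inpp5f were called lower, with -20.6 and -21.1 points, against 49.6% of all features. The Commd1 promoter row, at 28.2 points between pESC and ESC, had the widest difference when set against these 6. That row may include the start inside the Zrsr1 island. At the outer Commd1 start the 5′ UTR differed by 0.651 points and the island by -0.115 points.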

How the data were processed

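RRBS levels of 12 libraries were used. According to the submitters' processing notes the authors aligned reads with Bismark 0.16.3 and Bowtie2 to mm10. Per the study's methods they kept unique best alignments and corrected levels for non-conversion. The deposited tables gave each feature's level as a fraction, methylated CG calls over all CG calls, with no counts. The coverage minimum and the promoter definition were not given in the sources used here. Island starts are counted from 0 in the files and are printed counted from 1; shores are printed as deposited.

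The log2 odds of each level, log2((level + 0.01) / (1 - level + 0.01)), were tested feature by feature using lmFit and eBayes (limma 3.58.1, R 4.3.3). Each fit took the features listed in all of its libraries, and p-values were adjusted over them by the Benjamini-Hochberg method. A feature was called at an adjusted p under 0.05 and a difference of at least 10 points. Of 3 fits, 1 held ESC and pESC, another the PGC and PGCLC groups, and the last the stem cells with the PGCLC, which also gave the interaction. Any 2 groups of 2 libraries can reach no exact permutation p under 0.333, so none is given. The sign-flip test used scipy 1.17.1. Simulated levels with known shifts were used to test this step. Alternatives were offsets of 0.001 and 0.1, untransformed levels, centring on library medians, a fit of all 12 libraries, the replicate number as a block, a minimum mean level of 5%, promoters alone, and leaving out each library. Gene names came from GENCODE M21, which held 30041 of 30073 gene identifiers (99.9%).

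The members and the comparison lists were chosen with earlier results of these data known. Genes were named by a rule: the 2 members in every class, islands and shores in the Commd1 span, the 5 nearest promoters, and up to 4 of each list with the widest difference of pESC from ESC. Others named in the text (Zrsr2, U2af2, Mcts2, Gnas, Nespas and the island and shore beyond the Commd1 start) were chosen after their values were seen.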

Additional observations from a re-analysis of the deposited data

Results flagged for a closer look

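The change on induction differed between cells of fertilized and of parthenogenetic origin at 9 of the 14 features, by the interaction term of the limma fit. The values are the change from pESC to pESC-PGCLC minus the change from ESC to ESC-PGCLC. At Zrsr1 the difference was -34.9 points for the promoter, -35.5 points for the exon and -34.6 points for the 5′ UTR, each with an adjusted p of 0.00721. At Commd1 it was -34.3 points for the intron and -25.1 points for the promoter (adjusted p = 0.0173). The 1019-base island had -35.5 points. The shores starting at 22971115, 22972993 and 22973331 had -35.7, -33.8 and -36.5 points. These features share CpG sites and are not separate observations. The fit used 8 libraries. Without any 1 of the 4 pESC and pESC-PGCLC libraries the calls at these features did not hold, and hardly any feature of the whole series was called. Groups of 2 libraries were not tested for single libraries that stand apart.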

How the results depend on the processing

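Of the results for the Zrsr1 promoter, for the number of the 14 features called and for the promoter pair, the settings other than leaving out a library left 142 with the same call, which needs both an adjusted p under 0.05 and 10 points, and changed those that follow. For pESC against ESC the adjusted p at the Zrsr1 promoter was 0.0364 with an offset of 0.001, 3.08e-06 in the fit of all 12 libraries and 0.000305 among promoters alone, and 7 and 12 features were called in the first and second of these. Centring on library medians gave a limma adjusted p of 0.121 and 0 features for E12.5 against E9.5 PGC. It gave 5 features for ESC-PGCLC and 0 for pESC-PGCLC against E9.5 PGC. Of all 137202 features these 3 comparisons called 24392, 12535 and 18934 in either direction. Centring turned the sign at the Zrsr1 promoter for pESC-PGCLC against E9.5 PGC (limma adjusted p = 0.975) and for ESC-PGCLC against E12.5 PGC (limma adjusted p = 0.423). The cause was not tested. In 3 comparisons under 10 points the adjusted p at the Zrsr1 promoter crossed 0.05 with no change of call. For ESC-PGCLC against E12.5 PGC it was 0.166 in the fit of all 12 libraries and 0.0646 among promoters alone. For pESC-PGCLC against E12.5 PGC it was 0.247 after centring and 0.142 in the fit of all 12 libraries, and for pESC-PGCLC against pESC 0.0332 with untransformed levels and 0.00925 after centring. Leaving out 1 library at a time, the adjusted p at the Zrsr1 promoter for pESC against ESC ranged from 1.90e-07 to 0.284, with 0 to 11 features called, and for the interaction from 0.0182 to 0.101, with 0 to 8 features called. Fits without a library leave 1 library in a group, which is assumed to vary like the others.

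The replicate numbers are shared between groups, but the labels tie them to no litter, batch or day. Deviations of same-numbered libraries correlated at 0.432 between ESC and pESC, at 0.139 between E9.5 PGC and ESC-PGCLC and from -0.0573 to 0.0665 in the other 13 pairs of groups. With the replicate block the adjusted p at the Zrsr1 promoter was 0.0529 for pESC against ESC and 0.0241 for the interaction, with 0 and 8 features called. It was 0.0640 for ESC-PGCLC against E12.5 PGC, and no call at the Zrsr1 promoter changed. No counts were given, so neither depth nor coverage could be weighed.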
